A study of Rattus norvegicus with 6 samples.

Results

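Metallothioneins were measured by 3 probe sets of 8740 on the rat array, all those for which the platform annotation lists the symbol Mt1, Mt1a, Mt1m, Mt2, Mt2A or Mt3, alone or beside others. Probe set rc_AI102562_at lists Mt1, Mt1f and Ttr, probe set rc_AI176456_at lists Mt1m and Mt2A, and probe set rc_AA924772_at lists Mt3 alone. Because the first pair carry several symbols, they are called the Mt1-listed and the Mt2A-listed probe set, and neither is a measurement of a single gene. Liver RNA came from male Sprague Dawley rats on liquid diets given by total enteral nutrition for 3 weeks, and each sample was hybridised to 1 Affymetrix Rat Genome U34A array. The 3 NASH samples, named for nonalcoholic steatohepatitis, came from rats on 70% corn oil, who received 220 kcal daily for each kg of metabolic body mass. The 3 Control samples came from rats on 5% corn oil, who received 187 kcal on that basis. Fat content and energy supply differ together, so the diets are compared as a whole. The strain, sex, feeding route and duration were common to all samples, and no source used here gives an age. No label says whether each sample is a rat of its own, so a p-value here speaks only of sample-to-sample spread, part of which may be technical.

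Metallothioneins are small cysteine-rich proteins of the cytosol and nucleus that bind zinc and copper and can bind cadmium. Liver makes Mt1 and Mt2 in amounts that vary widely with its state: the zinc sensor Mtf1 switches them on through metal response elements in their promoters, and glucocorticoids, fasting, inflammatory cytokines and oxidants also raise them. Mt3, first known as growth inhibitory factor, is made mainly in brain. In the RefSeq annotation of the GRCr8 assembly, Mt1, Mt2A, Mt3 and Mt4 stand next to each other on chromosome 19, with no other annotated gene between them. Mt1m is annotated there as a pseudogene on chromosome 20 and Mt1f as a gene on chromosome X. The transcripts of such near copies may share probes, and the annotation used here does not say which of them gave the signal.

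The promoters of Mt1, Mt2A and Mt3 are shown because the Mt1-listed and Mt2A-listed probe sets varied together over the arrays and metal response elements are the best known control sites of the family. Each sequence is the RefSeq window of 250 bases before to 50 bases after the annotated start on GRCr8, read 5′ to 3′ along the gene. The Mt1 window is chr19:10832926-10833225, the Mt2A window chr19:10838659-10838958 and the Mt3 window chr19:10856031-10856330, all on the minus strand. Capitals mark matches to the core of the metal response element, searched as TGCACNC and TGCGCNC on both strands.
Mt1: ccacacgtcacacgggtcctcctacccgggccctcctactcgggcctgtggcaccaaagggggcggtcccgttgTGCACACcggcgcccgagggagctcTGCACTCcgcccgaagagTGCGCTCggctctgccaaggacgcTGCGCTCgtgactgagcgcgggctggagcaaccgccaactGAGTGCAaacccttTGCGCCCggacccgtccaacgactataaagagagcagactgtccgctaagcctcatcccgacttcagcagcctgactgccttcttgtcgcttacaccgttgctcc
Mt2A: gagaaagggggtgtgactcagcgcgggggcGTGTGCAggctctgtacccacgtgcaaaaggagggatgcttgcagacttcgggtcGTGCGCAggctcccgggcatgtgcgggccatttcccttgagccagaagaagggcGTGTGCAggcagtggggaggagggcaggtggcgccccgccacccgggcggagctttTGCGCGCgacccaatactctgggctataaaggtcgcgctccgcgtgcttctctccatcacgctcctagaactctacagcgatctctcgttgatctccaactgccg
Mt3: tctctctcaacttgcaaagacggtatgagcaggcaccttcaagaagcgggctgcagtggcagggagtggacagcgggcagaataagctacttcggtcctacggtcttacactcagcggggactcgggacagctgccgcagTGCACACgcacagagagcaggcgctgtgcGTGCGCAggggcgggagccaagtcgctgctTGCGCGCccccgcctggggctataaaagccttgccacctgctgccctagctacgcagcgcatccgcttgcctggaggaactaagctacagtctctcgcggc

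The Mt1 window held 6 matches, 5 on the strand of the gene and 1 on the other. The Mt2A window held 4, of which 1 lay on the strand of the gene, and the Mt3 window held 3. At least 1 match was present in 24.2% of all 33469 promoter windows of the same length, while 0.0388% held 6 or more, 0.439% held 4 or more and 1.68% held 3 or more. The core of the antioxidant response element, searched as TGACNNNGC on both strands, matched once in the Mt1 and once in the Mt2A window and not in that of Mt3, against 12.1% of all windows with at least 1, and neither match overlapped a capital. A match is a description of the letters in this window only.

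**Figure D1:**
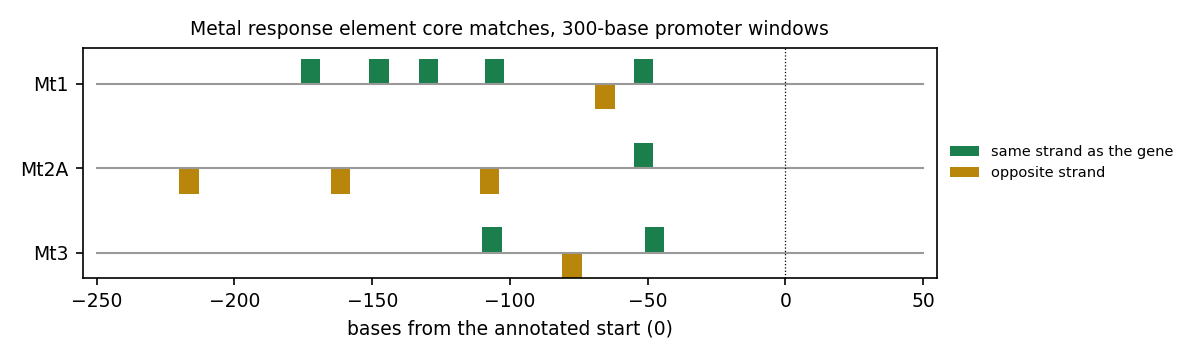
Positions of metal response element core matches in the promoter windows of Mt1, Mt2A and Mt3, in bases from the annotated start (dotted line at 0). Boxes above a line lie on the strand of the gene and boxes below it on the opposite strand; Mt1 has 6, Mt2A 4 and Mt3 3, all upstream of the start.

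The comparison of NASH with Control asks whether liver metallothionein transcripts differed after a diet high in polyunsaturated fat. The probe sets that list Mt1 and Mt2A, the forms the liver makes, were both higher in all NASH livers than in Control 1 and Control 3, and highest of all in Control 2. Neither of the 2 members tested passed the test for a difference between the diets over the 6 arrays. The signals of these probe sets differed by at most 2.13-fold among NASH livers, while those of Control livers spread over a wide range. In whole-liver RNA, fewer cells of a type and less RNA per cell cannot be told apart.

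The Mt2A-listed probe set had deposited MAS5 signals of 1688, 1130 and 872 in NASH 1, 2 and 3, against 25.7, 2473 and 51.4 in Control 1, 2 and 3. Control 1 and Control 3 lay below every NASH array and Control 2 above every one, so the groups overlapped. After quantile normalization, on the log2 scale with an offset of 2.21 added to the signal, the mean level was 10.34 ± 0.20 in NASH and 7.29 ± 3.65 in Control (SD, n = 3 each). The difference was 3.05 ± 1.51 (standard error), or 8.31-fold, and did not pass limma's test at an adjusted p under 0.05 (adjusted p = 0.619, unadjusted p = 0.0779). In size it was the 8th of the 5244 probe sets tested, beside a Control SD larger than the difference itself.

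The Mt1-listed probe set had deposited signals of 1101, 516 and 590 in NASH 1, 2 and 3, against 84.0, 2434 and 283 in Control 1, 2 and 3. The order of the arrays by group was that of the Mt2A-listed probe set, with Control 2 highest and Control 1 lowest. On the normalized log2 scale the mean level was 9.56 ± 0.39 in NASH and 8.59 ± 2.62 in Control (SD, n = 3 each), a difference of 0.97 ± 1.10 (limma adjusted p = 0.841). The mean of the deposited signals ran the other way, 736 ± 318 in NASH against 934 ± 1303 in Control, with Control 2 far above the other Control values. For the Mt2A-listed probe set the linear means were 1230 ± 417 in NASH and 850 ± 1406 in Control.

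The Mt3 probe set was dim on every array. Its deposited signals were 6.57, 5.45 and 6.04 in NASH 1, 2 and 3, against 5.88, 20.6 and 6.75 in Control 1, 2 and 3. Control 2 again held the highest value, and the NASH values lay among those of Control 1 and Control 3 or below them. Its mean log2 level over the 6 arrays was 3.35, under the filter of 3.94, so it was not tested, and its difference was −0.45 with group means of 3.12 ± 0.28 in NASH and 3.57 ± 0.74 in Control (SD, n = 3 each). Of the 3 members, 2 were tested and 0 were called by limma, where 0.133% of all probe sets tested were called in either direction (7 of 5244), and 0 of the 2 had an unadjusted p under 0.05, which 7.86% of all had.

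**Figure D2:**
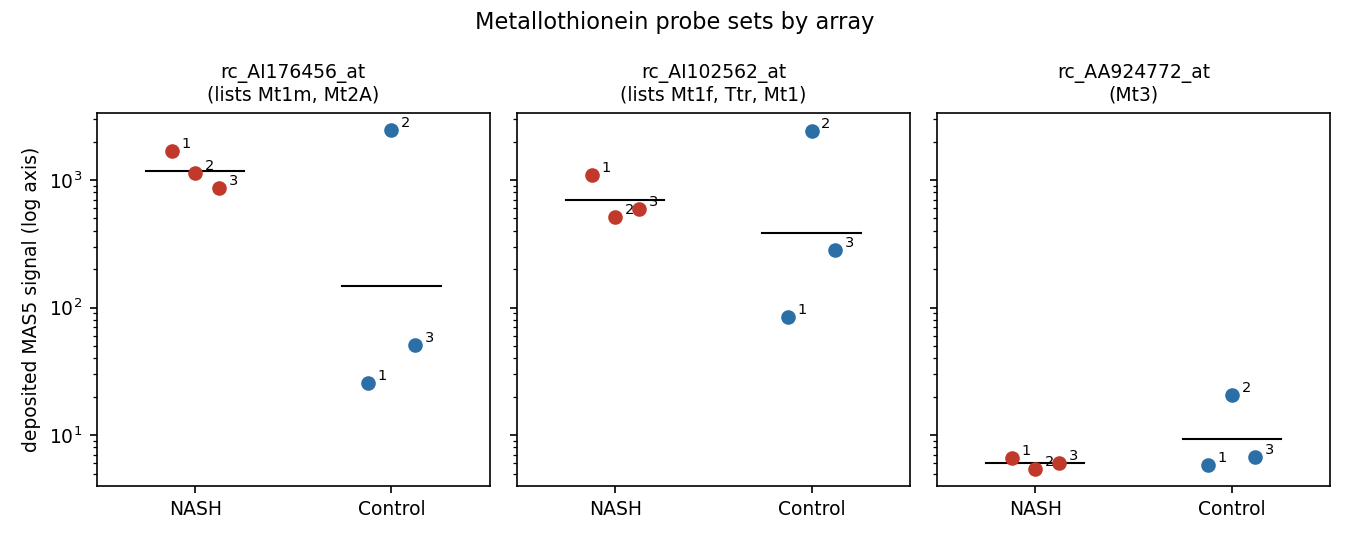
Deposited MAS5 signal (log axis) of the 3 metallothionein probe sets in each NASH and Control array, numbered by replicate, with the geometric mean of each group as a line. The Mt2A-listed and Mt1-listed signals of Control 2 (2473 and 2434) lie above all NASH arrays and those of Control 1 (25.7 and 84.0) and Control 3 (51.4 and 283) below them, while Mt3 stays at 20.6 or less.

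The spread within Control was among the widest on the array. The highest Control signal was 96.2-fold the lowest for the Mt2A-listed probe set, and 29.0-fold for the Mt1-listed probe set. Among NASH arrays the corresponding ratios were 1.94 and 2.13. By the SD of normalized log2 levels over the Control arrays, the Mt2A-listed probe set stood in place 2 and the Mt1-listed probe set in place 6 of the 5244 tested, while by the SD over the NASH arrays they stood in places 2959 and 1214. As a position among all 8740 probe sets of an array, the Mt2A-listed signal stood at percentiles of 97.7, 97.2 and 96.8 in NASH 1, 2 and 3, against 50.7, 98.9 and 69.7 in Control 1, 2 and 3. The Mt1-listed signal stood at percentiles of 96.2, 93.9 and 95.2 in the NASH arrays, against 75.3, 98.9 and 89.7 in the Control arrays. In all NASH arrays and in Control 2, both were thus among the brighter probe sets of the liver, and Mt3 lay between percentiles of 21.6 and 46.7 throughout.

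**Figure D3:**
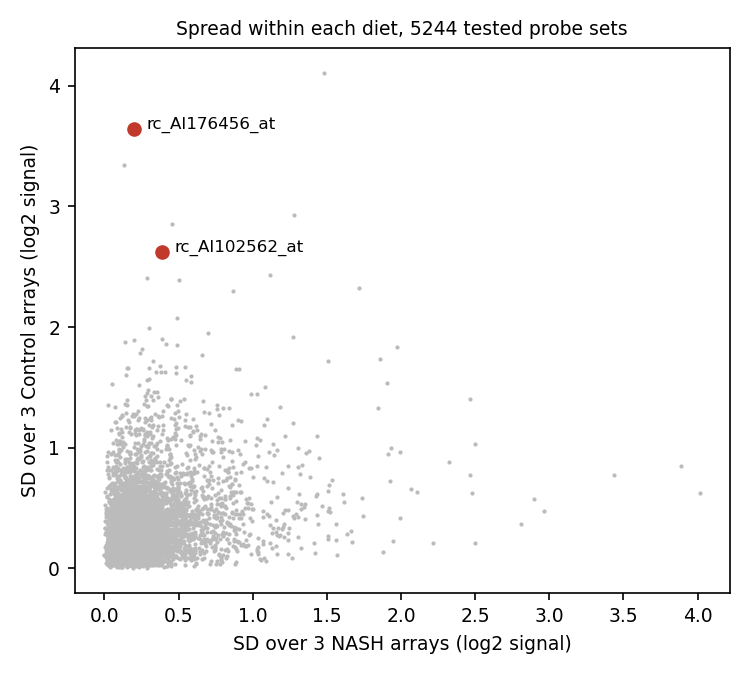
SD of normalized log2 signal over the 3 Control arrays (vertical axis) against that over the 3 NASH arrays (horizontal axis) for the 5244 tested probe sets (grey). The Mt2A-listed rc_AI176456_at (0.20 in NASH, 3.65 in Control) and the Mt1-listed rc_AI102562_at (0.39 in NASH, 2.62 in Control), in red, have a wider spread in Control than in NASH.

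The size of the Mt2A-listed difference and its call depended on Control 2, when each of the 6 arrays was left out in turn. Without Control 2, the Mt2A-listed probe set had a difference of 5.13 ± 0.35, or 35.1-fold (limma adjusted p = 0.0123), the largest of the 5244 tested in size, and was the single probe set called in that fit, or 0.0191% of those tested. The Mt1-listed probe set then had a difference of 2.38 ± 0.54 and was not called (limma adjusted p = 0.280). With any other array left out, neither was called: the Mt2A-listed difference lay between 1.73 without Control 1 and 3.15 without NASH 3, with 2.30 without Control 3. The Mt1-listed difference turned to −0.22 without Control 1 and was 0.74 without Control 3. The lowest NASH level of the Mt2A-listed probe set lay 4.37 above Control 3 and 5.53 above Control 1 on the log2 scale, and Control 2 lay 0.88 above the highest NASH level. For the Mt1-listed probe set these distances were 1.02, 2.93 and 1.49.

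The instrument records of the arrays, called wash records here, were set beside this pattern. A record was counted as filled or blank by its hybridization date alone. Records were filled for NASH 1, NASH 2, Control 1 and Control 3, and blank for NASH 3 and Control 2. Among the arrays with a filled record, only the clock hour of the recorded hybridization was compared. It was later in the day for NASH 1 and NASH 2 than for Control 1 and Control 3, the arrays with the lowest signals. The diet and the recorded hour therefore cannot be told apart there. Within the filled records the Mt2A-listed difference was 5.22 ± 0.425 (limma adjusted p = 0.0486, with 0.0381% of probe sets called) and the Mt1-listed difference 2.36 (not called). Within the blank records, NASH 3 minus Control 2 was −1.29 for the Mt2A-listed and −1.83 for the Mt1-listed probe set, without replicates and so without a test. The direction therefore did not hold within each kind of record. With the record as a block, the difference was 3.05 ± 1.19 for the Mt2A-listed and 0.97 ± 0.88 for the Mt1-listed probe set, and neither was called (limma adjusted p = 0.633 and 0.815).

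**Figure D4:**
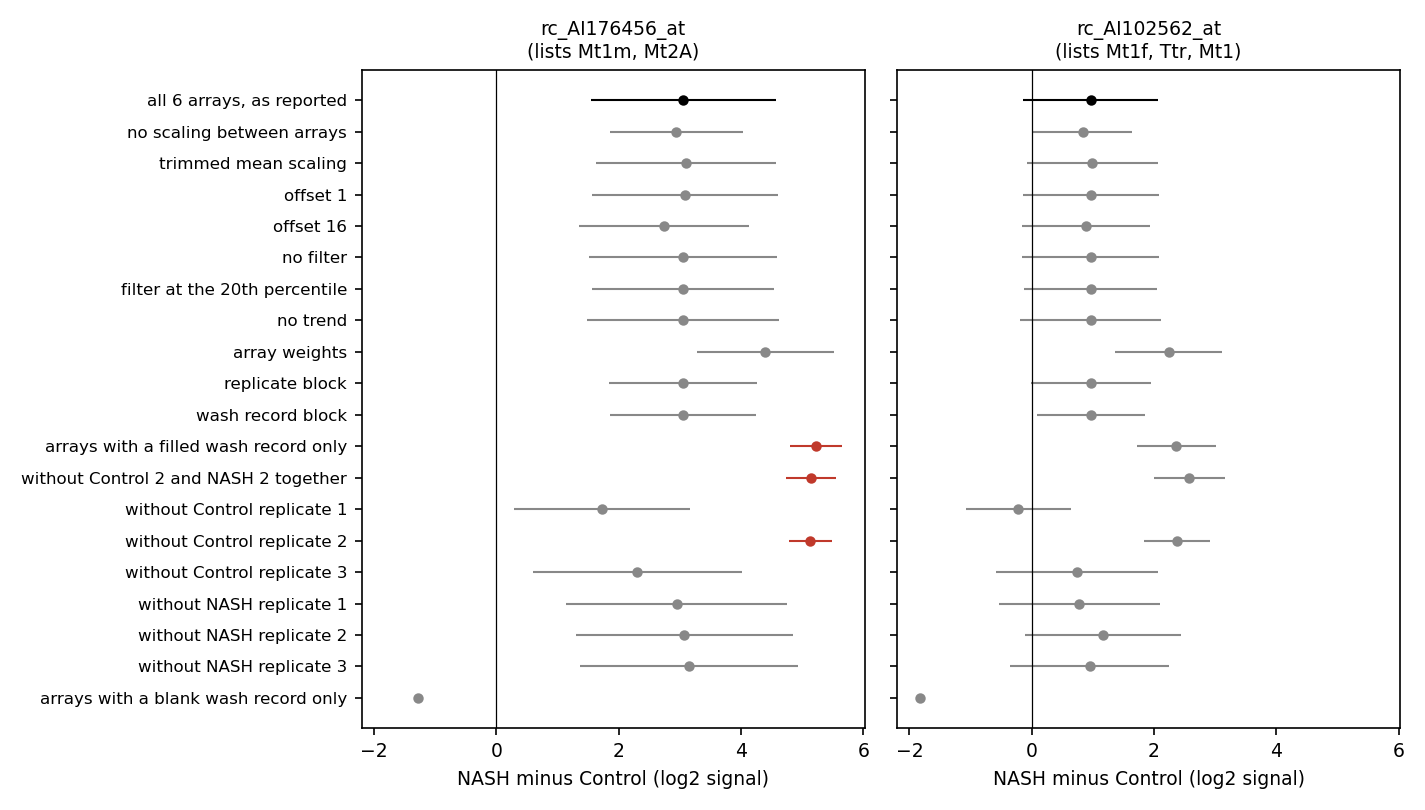
NASH minus Control in log2 signal (points) with its standard error (bars) for the Mt2A-listed (left) and Mt1-listed (right) probe set under each setting, with the reported fit in black and settings in which limma called the probe set in red. The Mt2A-listed difference is 3.05 with all arrays and 5.13 to 5.22 in the 3 settings without Control 2 that called it, and for both probe sets the comparison of the blank wash records, drawn without a bar, lies below 0.

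The Mt1-listed probe set was set beside Ttr, the transthyretin gene that its annotation also lists, because transthyretin is an abundant hepatocyte transcript. A pair of other probe sets list Ttr alone. Their normalized levels ranged over 0.22 and 0.12 on the log2 scale across the 6 arrays, while the Mt1-listed probe set ranged over 5.19 and the Mt2A-listed probe set over 6.81. The brighter Ttr probe set had deposited signals of 5677, 5307 and 4590 in NASH 1, 2 and 3, against 7262, 5018 and 5821 in Control 1, 2 and 3. Ttr alone thus showed none of the array pattern of the Mt1-listed probe set.

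Within each array, the distance between the Mt2A-listed and the Mt1-listed level also varied. The Mt2A-listed minus the Mt1-listed log2 level was 0.63, 1.15 and 0.57 in NASH 1, 2 and 3, against −1.60, 0.03 and −2.35 in Control 1, 2 and 3. The value itself depends on the probes, and only its change from array to array can be read: the Mt2A-listed signal was lower relative to the Mt1-listed one in Control 1 and Control 3 than elsewhere. NASH and Control values did not overlap, which 14.3% of probe sets tested also showed for their own levels, and this difference was not tested.

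Over the 6 arrays the Mt1-listed and Mt2A-listed levels had a Pearson r of 0.926. With n = 6 arrays of 2 diets, this coefficient describes a shared order of the arrays, in which Control 2 and the other Control arrays form the extremes. Of the probe sets tested, 1.28% had the same order by group, with Control 2 above all NASH arrays and Control 3 and then Control 1 below them. A further probe set, M11794cds#2_f_at, is not listed in the annotation and is not named here. It was singled out after its values were seen, with r of 0.975 to the Mt2A-listed and 0.965 to the Mt1-listed probe set. Its deposited signals were 1119, 782 and 818 in NASH 1, 2 and 3, against 22.96, 1979 and 135 in Control 1, 2 and 3, and its difference was 2.35 ± 1.38 (limma adjusted p = 0.681).

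Among probe sets with a single symbol, the 5 with the highest r to the Mt1-listed probe set, taken for its higher mean log2 level over the 6 arrays, were Igf2 (0.990), Myh1 (0.983), Pim3 (0.974), Fxyd1 (0.973) and Ndufa4l2 (0.959). All 5 spread far less. Igf2, an insulin-like growth factor, had deposited signals of 82.4, 75.0 and 57.2 in NASH 1, 2 and 3, against 37.8, 102 and 50.9 in Control 1, 2 and 3. The lowest r belonged to Egfr (−0.991), Ppp2r2a (−0.968), Gh1 (−0.964), Eif2b1 (−0.957) and Map2k2 (−0.950). Egfr, the epidermal growth factor receptor, had signals of 91.3, 90.9 and 64.8 in the NASH arrays, against 126, 76.6 and 97.4 in the Control arrays. Its normalized log2 levels, on which r was taken, were lowest in Control 2 (6.31) and highest in Control 1 (6.75). Differences between the diets for these 10 lay between −0.27 and 0.39, and none was called.

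Pck1, the cytosolic phosphoenolpyruvate carboxykinase of gluconeogenesis, was chosen after its values were seen. It ranked 2 among all probe sets tested by r to the Mt2A-listed probe set (0.982). Ranks 1 and 3 belonged to dimmer probe sets, Plcb2 (0.998, deposited signals of 11.1 to 30.6) and Dock8 (0.977, 50.2 to 76.0). The deposited signals of Pck1 were 1135, 1178 and 682 in NASH 1, 2 and 3, against 327, 1195 and 336 in Control 1, 2 and 3. As with the metallothioneins, Control 1 and Control 3 were low and Control 2 stood with the NASH arrays. Its difference was 1.12 ± 0.55 (limma adjusted p = 0.619), and 1.84 without Control 2. By r to the Mt1-listed probe set, Pck1 ranked 80 (0.873).

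**Figure D5:**
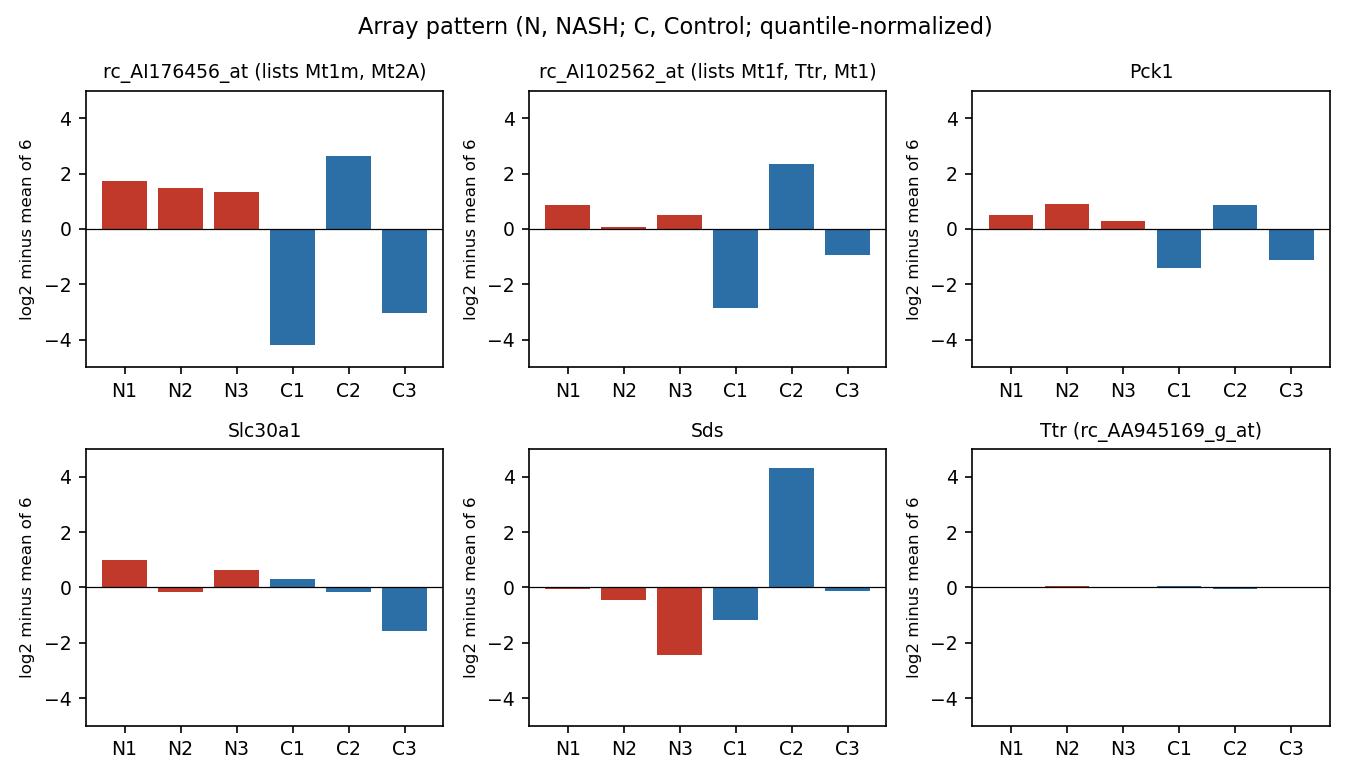
Normalized log2 level of each NASH (N, red) and Control (C, blue) array minus the mean of the 6 arrays, for the Mt2A-listed and Mt1-listed probe sets, Pck1, the zinc exporter Slc30a1, the serine dehydratase Sds and Ttr. Control 1 and Control 3 are the lowest arrays for both metallothionein probe sets and Pck1, Slc30a1 is lowest in Control 3, Sds is high in Control 2 only, and Ttr is level, with a range of 0.12.

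Of 13 listed genes of zinc transport and metal sensing, 3 were measured by a probe set with a single symbol, and all 3 were tested with 0 called. Slc30a1, a zinc exporter that Mtf1 also switches on, had deposited signals of 37.9, 15.9 and 20.04 in NASH 1, 2 and 3, against 24.2, 16.2 and 3.34 in Control 1, 2 and 3. Only Control 3 stood low, and Control 2 was not the highest array. Its difference was 0.98 ± 0.54 (limma adjusted p = 0.648), and those of the vesicular zinc transporters Slc30a4 and Slc30a2 were −0.46 and 0.20. The median of the 3 was 0.20, against −0.02 over all 5244 probe sets tested, and −0.17 without Control 2. Mtf1 itself was not analysed here.

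Copper and iron genes held no call. Of 18 listed, 10 were measured and 8 tested, with 0 called, 5 higher and 3 lower in NASH, and a median difference of 0.15. Aco1, whose protein binds iron-responsive elements when iron is short, had deposited signals of 368, 230 and 212 in NASH 1, 2 and 3, against 203, 132 and 124 in Control 1, 2 and 3. All NASH values were above those of Control, and the difference was 0.92 ± 0.21 (limma adjusted p = 0.309). Aco1 was the 1 gene of the 8 tested without overlap, where 14.3% of all probe sets tested had none. The related Ireb2 had a difference of 0.39 and the transferrin receptor Tfrc one of 0.75. The copper transporters Atp7a and Atp7b were below the filter.

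Among 11 measured genes that answer to glucocorticoids, all tested, 0 were called higher and 1 lower, with a median difference of −0.26. Over all 5244 probe sets tested, 0.133% were called in either direction and the median difference was −0.02. Igfbp1, an insulin-repressed binding protein, fell by 1.76 on the log2 scale (limma adjusted p = 0.0342). That call ended with any 1 of the 6 arrays left out, with differences of −1.90 to −1.66 and a lowest limma adjusted p of 0.0599. Dusp1, a phosphatase, differed by −1.32 and Nr3c1, the glucocorticoid receptor, by −0.54 (limma adjusted p of 0.0881 and 0.544). These 3 had higher deposited signals in all Control arrays, Control 1 and Control 3 included, than in any NASH array, which was not the order of the metallothioneins. Groups did not overlap for 14.3% of all probe sets tested. Of the 11 genes, 8 were lower in NASH and 3 higher: Pck1, Tat and Tdo2, by 1.12, 0.37 and 0.17. In normalized level, each of these higher genes had Control 1 and Control 3 below every NASH array, as both tested metallothionein probe sets had. Being higher in NASH favours such an order, and its share over all probe sets tested was not counted. Control 2 lay below NASH 2 for Pck1 and Tat, unlike for the metallothioneins. For 7 of the 11 genes Control 2 was the highest array, which it was for 23.8% of all probe sets tested. Sds, an amino acid breakdown enzyme, had signals of 93.4, 66.3 and 10.6 in NASH 1, 2 and 3, against 43.3, 1691 and 81.4 in Control 1, 2 and 3, and so was high in Control 2 alone. The clock genes Dbp and Bmal1 are in none of the lists and were named as markers of Control 2, chosen with earlier results known. How many of all probe sets set Control 2 apart by as much was not counted. Control 2 also had the highest signal of the clock output factor Dbp, 127 against at most 10.1 on the other arrays. Both Dbp probe sets were below the filter and not tested. Both probe sets of the clock factor Bmal1 were tested and were lowest in Control 2, at 3.95 and 2.90, against at least 20.3 on the other arrays. The part of these differences of Control 2 in its metallothionein level was not tested.

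Acute phase genes, which the liver makes in response to inflammatory cytokines, had no common direction. All 22 listed were measured and 20 tested, with 10 higher, 10 lower, 0 called and a median difference of 0.02. Of the 20, 4 higher and 4 lower genes had an unadjusted limma p under 0.05, which 7.86% of all probe sets tested had. Groups did not overlap for 7 of the 20, against 14.3% of all. Control 2 was the highest array for 4 of the 20. A2m, alpha-2-macroglobulin, had a difference of −0.83, Orm1, orosomucoid, one of 0.88 and Fga, the fibrinogen alpha chain, one of 0.27 (limma adjusted p from 0.309 to 0.560). Orm1 was lowest in Control 2, at 1018, against 2024 to 3226 on the other arrays. Socs3 and Tnf were below the filter.

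Of 17 listed oxidant defence genes, 14 were measured and tested, with 8 higher, 6 lower and 0 called, and their median difference was 0.03. The mitochondrial superoxide dismutase Sod2 had a difference of 0.49, the haem oxygenase Hmox1 one of 0.37 and the thioredoxin reductase Txnrd1 one of −0.39 (limma adjusted p from 0.582 to 0.696). Hmox1 had deposited signals of 113, 121 and 76.7 in NASH 1, 2 and 3, against 115, 75.2 and 78.0 in Control 1, 2 and 3.

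Markers of hepatocytes and of other cells were measured beside these results. Of 12 hepatocyte markers 11 were measured and tested, with deposited signals, summed over their probe sets, of 69520 to 92650 in NASH and 84180 to 112400 in Control, a median difference of −0.01 and 0 called. The summed signals in this paragraph were not brought to a common scale, so small differences between them cannot be read as differences in cells. Ambp, Cps1 and Apob had differences of −0.27, −0.26 and 0.29. Of 9 adipose markers 8 were measured, with summed signals of 636, 4529 and 510 in NASH 1, 2 and 3, against 482 to 609 in Control. Ucp1, Cidea and Lipe were all highest in NASH 2 and had differences of 3.12, 2.17 and 1.13, none called. Of 11 skeletal muscle markers 8 were measured, with summed signals of 102, 2365 and 91.3 in NASH 1, 2 and 3, against 69.0 to 142 in Control. Acta1, Tnnt3 and Tnnc2 were also highest in NASH 2, with differences of 3.46, 2.08 and 1.22, none called. Of the 6 muscle markers tested, 5 were higher in NASH and 1 lower. The lower one, Myh4, had a difference of −0.30 and its lowest signal in NASH 2, at 8.53. Metallothionein signals of NASH 2 did not stand apart from those of NASH 1 and NASH 3, and without NASH 2 the differences were 3.07 for the Mt2A-listed and 1.17 for the Mt1-listed probe set. Of 14 leukocyte and Kupffer cell markers 10 were measured, with summed signals of 983 to 1725 in NASH and 1119 to 1578 in Control. Of these, 8 were tested, with 7 higher and 1 lower in NASH, 0 called and a median difference of 0.24. Coro1a, Cd48 and Cd4 had differences of 1.47, 0.84 and 0.36 and Cd74, the lower one, a difference of −0.30. Coro1a and Cd48 were highest in NASH 2, at 75.4 and 98.3, and Cd3d and Cd8a were below the filter. The part of other cell types in the metallothionein levels was not tested.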

How the data were processed

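Per the submitters' processing notes, the deposited values are linear MAS5 intensity signals, with 1 value for each probe set on each array. The MAS5 version and scaling target are not given in the sources at hand, and no detection calls were used. Trimmed means (2%) of 73.6 to 117 showed no common scale. Instrument records gave tissue, wash settings and, where filled, a hybridization time. Groups came from titles, since every sample's description repeats that of the first Control sample. All 8799 probe sets were quantile normalized and set to log2(signal + 2.21), the 10th percentile of deposited values as offset, which understates the change of dim probe sets. After 59 array controls were left out, 5244 of 8740 probe sets with a mean log2 above the 40th percentile (3.94) were fitted with limma 3.58.1 in R 4.3.3 (lmFit, eBayes with trend, no covariates) and Benjamini-Hochberg adjustment. The test was run on simulated data first. Symbols came from the platform annotation (7006 probe sets with 1, 308 with several, 1426 with none). Where several probe sets measured a listed gene, the brightest stood for it. Members, lists, naming rule (the members, up to 3 members of each list by smallest p and any called, the 5 closest and 5 farthest patterns) and alternatives were chosen with earlier results of these data known. Markers of an array standing apart (Sds, Dbp and Bmal1 for Control 2) were named as well. The number of arrays, 6, limits the precision.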

Additional observations from a re-analysis of the deposited data

How the results depend on the processing

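Over the 10 settings that kept all 6 arrays, the Mt2A-listed difference lay between 2.75 (offset of 16) and 4.40 (array weights) and the Mt1-listed difference between 0.83 and 2.24, and neither was called. The Mt2A-listed probe set was called with a filled wash record only (5.22), without both Control 2 and NASH 2 (5.15) and without Control 2. With 1 array left out its difference ranged from 1.73 to 5.13, that of the Mt1-listed probe set from −0.22 to 2.38, and that of Mt3 from −0.75 to −0.04. Within the blank wash records the differences were −1.29 and −1.83. The cause was not tested. The number of probe sets called by limma was 7 as reported, 14 with no scaling (which moved the median of all differences to −0.17), 18 with array weights, 15 without Control 2 and NASH 2, 3 with no trend, 3 with the wash record as a block, 2 with a filled wash record only, and 0 to 17 with 1 array left out. With no filter it was 0, with 633 at an unadjusted p under 0.05 and a lowest adjusted p of 0.0553. It was 0 without Control 1, Control 3 or NASH 3, with 513, 417 and 265 at an unadjusted p under 0.05. With the replicate number as a block 1 was called, and the Mt2A-listed and Mt1-listed differences of 3.05 ± 1.21 and 0.97 ± 0.98 were not. Same-numbered samples had deviations correlated at 0.05, −0.02 and 0.07, and not every sample correlated best with its own number, so the numbers were not taken to pair the samples. List medians with 1 array left out, an alternative chosen after seeing the data, ranged from −0.51 to −0.24 for glucocorticoid-responsive genes, −0.01 to 0.06 for acute phase genes, −0.04 to 0.09 for oxidant defence, 0.04 to 0.27 for copper and iron and −0.17 to 0.51 for zinc transport. The dim Mt3 signal limits what can be said of that gene.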
